A study of Saccharomyces cerevisiae with 44 samples.

Results

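Genes that face their downstream neighbour were examined for reads on the strand opposite to the gene. From the deposited table of opposite-strand counts over protein-coding genes, the S. cerevisiae genes with a standard name were ordered along each chromosome. A gene was kept when its next such neighbour on the 3′ side lay on the other strand at a distance of 0 to 1000 bp. This gave 2346 convergent genes, forming 1173 pairs, of 5140 named genes and 6600 S. cerevisiae genes in the table. The 1460 genes without a standard name were not used to choose neighbours. A further 1942 named genes, whose downstream neighbour lay on the same strand within the same distance, are called tandem genes and served for comparison.

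Convergent genes point their 3′ ends at each other, so RNA polymerase that runs past the end of one gene transcribes the other in antisense. In budding yeast most protein-coding genes end at poly(A) sites, where the cleavage and polyadenylation factors cut the transcript. Short non-coding transcripts are instead ended by Nrd1, Nab3 and Sen1 and handed to the nuclear exosome, of which Rrp6 is the nuclear exonuclease. Antisense reads over a convergent gene can therefore come from a readthrough transcript of the neighbour or from a separate non-coding RNA, and a count over the gene does not separate these sources.

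The study profiled quiescence entry of W303 yeast by strand-specific sequencing of 44 samples in 22 groups of 2 labelled replicates. Every library also held Kluyveromyces lactis reads, of an amount and basis not given in the sources used here. Wild type and rrp6Δ cells, the latter lacking Rrp6, were sampled in G1, at 2 h before and 2, 24 and 48 h after the diauxic shift, the glucose exhaustion timed with glucose strips, and in purified quiescence after 8 days. Both strains also gave nascent RNA, labelled with thiouracil, from quiescent cells. G1 cells had been arrested with alpha factor in early log phase, and quiescent cells came from a density gradient of cultures grown in rich medium with glucose. A separate wild-type set made with the Ovation kit held steady-state and nascent RNA of G1 cells and of quiescent cells after 7 days. Nab3-AID cells, whose Nab3 carries an auxin-inducible degron, and OsTIR-AID control cells were both labelled as treated with auxin, and gave steady-state and nascent RNA of quiescent cells after 7 days. The other 36 libraries were made with the Universal Plus kit, and all contrasts below compare libraries of 1 kit. The replicates of every group were labelled as 2 strains of 1 genotype. P-values of single genes measure only the spread between such replicates, estimated from all groups fitted together and not from 2 samples alone.

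The libraries held 1337088 to 11939647 sense reads over S. cerevisiae genes and 18593 to 496501 antisense reads over the convergent genes, with a median of 81786.5. Between 6 and 597 convergent genes had 0 antisense reads in a library. Among convergent genes with at least 5000 sense reads, the 5th percentile of antisense reads as a percent of sense reads was 0.221 to 0.862% in Universal Plus libraries and 0 to 0.0187% in Ovation libraries, which sets a floor below which antisense reads may come from imperfect strand marking. The percentile rests on 3 to 162 genes in a Universal Plus library and on 14 to 207 in an Ovation library, so the floor is rough where few genes reach 5000 reads. RRP6 sense reads stood at 3.36 to 19.7 CPM (counts per 1000000 sense mRNA reads, after TMM scaling except for RRP6, marker sums and levels per kb) in the 14 rrp6Δ libraries and at 77.6 to 299 CPM in the other 30. Summed alpha-factor-induced genes lay at 13960 to 33910 CPM in the 8 G1 libraries and at 147.5 to 589 CPM in the 20 quiescent ones. Summed quiescence markers lay at 608 to 1034 CPM in G1 and at 6074 to 67550 CPM in quiescence. After the shift they lay at 10340 to 63280 CPM, so they do not set quiescence apart from it. They stood at 15617 and 19685 CPM in Nab3-AID steady-state RNA, against 67552 and 62218 in OsTIR-AID. In rrp6Δ they were above wild type at 2 h before the shift (2623 and 2332 against 709 and 696) and below it at 24 h (13295 and 10338 against 41589 and 44239). Whether these groups differ in cell state was not tested.

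The gap between paired genes had a median of 219 bp, with quartiles of 138 and 327 bp and a range of 3 to 991 bp. It was at most 100 bp in 141 pairs, up to 200 bp in a further 385, up to 400 bp in 460 and over 400 bp in 187. An annotated non-coding RNA ran antisense to 875 convergent genes (37.3%) and to 1353 tandem genes (69.7%). The classes named in the deposited annotation overlapped: XUTs covered 310 convergent genes, CUTHMMs 260, SRATs 249, NUTs 236, CUT4x transcripts 210, SUTs 125 and CUTs 109. NUTs were defined by their accumulation after Nrd1 depletion and CUTs by their accumulation without Rrp6. Another gene of the table, often one without a standard name, overlapped 181 convergent genes on the opposite strand, and its own sense reads are counted there as antisense.

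The deposited models of nascent transcripts in G1 and quiescence gave a reach of the neighbour into the gene. In G1 the neighbour's model entered 441 of 2126 convergent genes (20.7%), by a median of 32 bp among those entered. In quiescence it entered 514 of 2230 (23.0%), by a median of 96 bp. It covered at least 50% of the gene in 23 cases in G1 and in 88 in quiescence. Of 2096 genes with both models, the neighbour reached further in quiescence in 346, further in G1 in 194, and equally far in 1556. PSY2, a subunit of protein phosphatase 4, was covered over all of its 2577 bp by the quiescent model of SPS19, a peroxisomal dienoyl-CoA reductase, and not entered by the G1 model.

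The edges of the rule are shown by mean antisense CPM per kb over all libraries. With a gap of 991 bp, GAS5 stood at 22.0 and YAP7 at 1.52. Just outside, with a gap of 1001 bp, GLO3 stood at 8.64 and SCS2 at 31.7. At the narrow end, with a gap of 3 bp, PHM8 stood at 12.4 and KRE29 at 16.2. The overlapping genes CWC25 and VPS75, which the rule left out, stood at 16.2 and 42.5.

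The antisense share, antisense reads as a percent of antisense plus sense reads summed over the convergent genes, does not depend on library scaling. In Ovation libraries it was 1.23% ± 0.00773 (SD, n = 2) in G1 and 3.36% ± 0.0977 (n = 2) in quiescence in steady-state RNA. In nascent RNA it was 1.73% ± 0.0592 (n = 2) in G1, while the quiescent libraries gave 4.93 and 3.37%. The quiescent libraries were thus higher than the G1 libraries in both kinds of RNA, without overlap.

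In Universal Plus wild-type libraries the share was 2.25% ± 0.0192 (n = 2) in G1 and 2.36% ± 0.0960 at 2 h before the shift. It then stood at 3.22% ± 0.149 at 2 h after it, 2.73% ± 0.0027 at 24 h, 4.29% ± 0.0211 at 48 h, and at 4.2 and 3.88% in quiescence. The rrp6Δ libraries lay above wild type at each of these points: 3.61% ± 0.0373 in G1, 3.87% ± 0.0336, 4.43% ± 0.0596, 4.59% ± 0.0659 and 5.88% ± 0.482 along the shift, and 5.68% ± 0.0157 in quiescence. Nascent quiescent RNA held a share of 4.32% ± 0.336 in wild type and 4.67% ± 0.112 in rrp6Δ. No rrp6Δ library overlapped its wild-type group, and the smallest distance between the groups was in nascent RNA. In wild type the share of the median convergent gene was 1.54% at 2 h before the shift and 1.55% at 2 h after, with overlapping libraries. The 10 convergent genes with the most antisense reads over all libraries held 18.5 and 17.4% of the antisense reads at 2 h after. Without them the summed share went from 2.16 to 2.72%.

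The highest shares came from Nab3-AID cells, at 12.4% ± 0.322 in steady-state and 15.2% ± 0.284 in nascent RNA, against 3.93% ± 0.119 and 4.84% ± 0.413 in OsTIR-AID controls (n = 2 each). With 2 libraries a group, the exact permutation test cannot go below p = 0.33. For shares summed over all convergent genes this was the value in every contrast except quiescent nascent against steady-state RNA. There the groups overlapped (permutation p = 0.667).

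**Figure D1:**
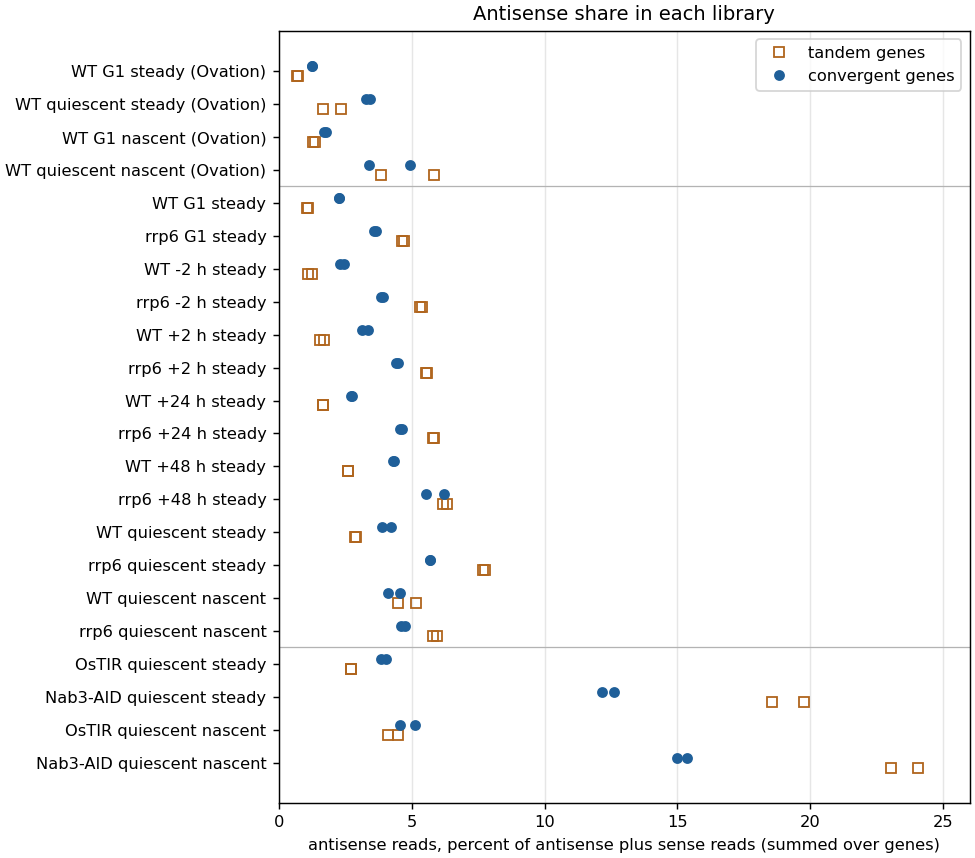
Antisense reads as a percent of antisense plus sense reads (horizontal axis) in each of the 44 libraries, in 22 groups along the vertical axis. Filled circles are sums over the 2346 convergent genes and open squares sums over the 1942 tandem genes. Nab3-AID libraries have the highest shares, at 12.4% and 15.2% on average for convergent genes. On group means tandem genes have larger shares than convergent genes in every rrp6Δ and Nab3-AID group.

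Convergent genes had the larger share in all 18 steady-state libraries of wild type and OsTIR-AID, by 0.521 to 1.73 percentage points (mean 1.23, SD 0.346). Tandem genes had the larger share in 11 of the 12 steady-state rrp6Δ libraries, where the difference, convergent minus tandem, ran from −2.05 to 0.057. They also had it in all 4 wild-type quiescent nascent libraries, where the difference ran from −0.901 to −0.395. In the OsTIR-AID nascent libraries convergent genes had the larger share, by 0.457 and 0.664 points. Nab3-AID tandem genes stood at 19.2% in steady-state and 23.5% in nascent RNA. Over all 44 libraries the difference averaged −0.581 points (SD 2.52), with convergent genes higher in 23 and tandem genes in 21. It did not pass a permutation test that flips signs by library (two-sided p = 0.132). The test treats libraries as independent, although they share strains and form groups whose differences lie on either side of 0.

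Per length, the median convergent gene held 0.436 to 13.8 antisense CPM per kb across the 22 groups, against 0.287 to 23.3 for the median tandem gene. Genes with a gap of at most 100 bp had medians of 1.93 to 20.7 CPM per kb, and those with a gap over 400 bp had medians of 0.193 to 12.2. Genes with an annotated antisense non-coding RNA had medians of 0.701 to 17.7, and those without one 0.293 to 12.3. Antisense exceeded sense CPM in 57 to 263 convergent genes, depending on the group, most often in Nab3-AID cells.

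The 5 convergent genes with the highest mean antisense level per length were IRC2, IRC14, JIP3, CMC4 and OPI8. IRC2 averaged 613 CPM per kb and ran from 25 to 2380 in single libraries, with the highest group means in quiescent steady-state RNA of OsTIR-AID (1920) and of the Ovation wild type (1890). IRC14 averaged 474, with its highest group mean of 2180 in rrp6Δ at 24 h. JIP3 averaged 238, with its highest group mean of 1030 in Ovation G1 nascent RNA, and OPI8 averaged 179, with its highest of 376 in rrp6Δ quiescent steady-state RNA. These 4 are dubious reading frames that overlap another frame on the opposite strand, so that frame's sense reads fall in their antisense count. CMC4, a verified gene of a protein of the mitochondrial intermembrane space, averaged 193 and ranged from 2.51 to 1210 in single libraries, with the highest group mean in rrp6Δ G1 cells (1180).

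SER3 and ADE12 are genes with a described antisense or intergenic transcript that also fall among the convergent genes. A transcript on the strand of the gene itself is not in these counts. Whether the reads counted come from the described transcripts was not tested. SER3, a serine biosynthesis enzyme, had 465 antisense reads in all libraries together and at most 7.03 CPM per kb in a library. By edgeR's adjusted p its antisense passed in quiescent over G1 nascent RNA (log2 3.17, adjusted p = 0.0025), in rrp6Δ at 24 h (2.12, adjusted p = 0.0063) and in Nab3-AID nascent RNA (2.14, edgeR adjusted p = 3.2e-05). ADE12, an enzyme of adenine nucleotide synthesis, had 209 reads and passed at 24 h in rrp6Δ among the contrasts run (2.41, edgeR adjusted p = 0.019). Mean antisense in rrp6Δ at 24 h was 2.24 CPM per kb for SER3 and 1.51 for ADE12. Their own sense stood at 346 and 223 there, against 78.9 and 45.7 in wild type. In Nab3-AID nascent RNA SER3 antisense was 6.66 beside sense of 709, against sense of 109 in OsTIR-AID. These levels lie near the strand floor of the Universal Plus libraries, so imperfect strand marking cannot be told apart from antisense RNA. In Ovation nascent RNA, with its lower floor, SER3 antisense was 1.76 beside sense of 242 in quiescence, and 0.149 beside 168 in G1.

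Changes were then tested gene by gene with edgeR's quasi-likelihood test, fitted on the opposite-strand counts of all genes and adjusted over all of them (Benjamini-Hochberg, threshold 0.05). Libraries were scaled on their sense mRNA reads, so a change is in antisense relative to the mRNA of the same library, and a drop in mRNA per cell cannot be told apart from a rise in antisense. Scaling on K. lactis reads moved the median change by −4.45 to 2.02 on the log2 scale, depending on the contrast, and scaling on antisense reads by −1.73 to 0.44. Directions below hold for the sense mRNA scale, and the split of higher and lower calls under another scaling is given where it moved by over 10 percentage points. A level of 0 in every library of a group is set at 3 reads a library, and such folds are written as "at least". Of the convergent genes, 94 were tested in no contrast for low counts, 3 had no antisense read in any library and 1544 were tested in all 16 two-group contrasts.

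**Figure D2:**
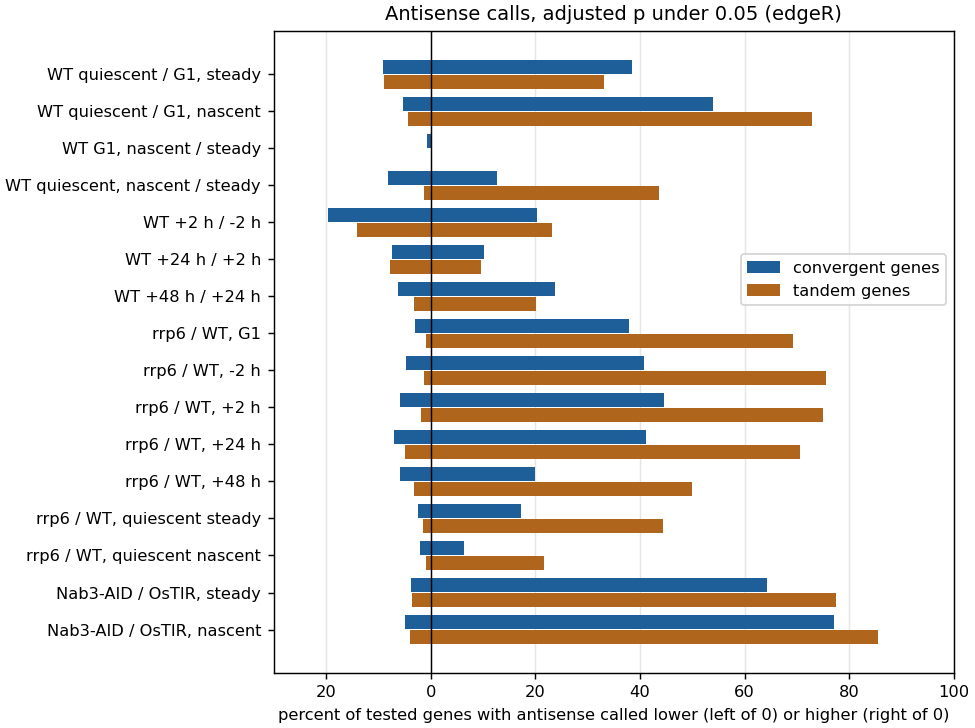
Percent of tested genes whose antisense was called lower (bars to the left of 0) and higher (bars to the right of 0) in each of 16 contrasts, for convergent and tandem genes, at an adjusted p under 0.05 on the sense mRNA scale. In rrp6Δ G1 cells 38% of convergent and 69.3% of tandem genes were higher. In Nab3-AID nascent RNA the values were 77% and 85.6%.

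Quiescent wild-type cells held more antisense over many convergent genes than G1 cells in steady-state RNA. Of 1649 genes tested, 633 rose (38.4%) and 151 fell, where 36.4% of all genes rose and 12.0% fell, so the share of convergent genes that rose was near that of all genes. Their median change was 1.24 (log2), against 1.14 for tandem genes. With antisense scaling the split was 385 higher and 326 lower, and without quiescent steady-state replicate 1 it was 416 and 104.

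MTL1, a cell wall stress sensor on chromosome VII (529264 to 530919, plus strand), had 280 and 377 antisense CPM in the 2 quiescent libraries and 0 in both G1 libraries. That was at least 485-fold higher (edgeR adjusted p = 1.69e-10), while its neighbour THG1, which modifies histidine tRNA at a distance of 963 bp, changed by 1.05 in sense. MTL1 is also overlapped by the unnamed frame YGR022C on the other strand, whose sense reads fall in this count. CLN3, the G1 cyclin at chromosome I 65778 to 67520, had 46.6 and 37.1 antisense CPM in quiescence and 0 in G1, at least 61.7-fold higher. CLN3 sense fell by 7.14 on the log2 scale, and sense of its neighbour CDC24, which activates Cdc42, fell by 1.10. EBS1 on chromosome IV had 66 and 34.8 CPM against 0 in G1, at least 74.3-fold higher, beside a rise of 2.96 in sense of UME6, a regulator of meiotic genes.

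PSY2, on chromosome XIV from 260627 to 263203, had 117 and 230 antisense CPM in quiescence against 0 and 0.224 in G1. The ratio of counts was 1440 (95% interval 258 to 56900, counting error only). Sense of SPS19, 170 bp away, stood at 328 and 616 CPM in quiescence against 0.912 and 1.57 in G1, a log2 change of 8.55. The genes that fell most lay beside neighbours that fell. MIC26, a subunit of the mitochondrial MICOS complex, had 1.79 and 0.893 antisense CPM in quiescence against 227 and 249 in G1 (log2 −7.38 ± 0.415 SE, adjusted p = 1.69e-10). Its neighbour YHB1, the nitric oxide-detoxifying flavohemoglobin 256 bp away, went from 3079 and 3660 to 22.4 and 13.4 CPM in sense, while MIC26 sense itself rose by 1.86. APC9, of the anaphase-promoting complex, went from 16.6 and 17.0 CPM to 0, at least 15.1-fold lower, next to the sterol synthesis gene ERG27 (−2.79). RSA1 antisense went from 25.1 and 28.5 to 0.299 and 0 CPM next to the karyogamy gene PRM3 (−6.50). MAM3 moved against its neighbour, with 2.09 and 28.1 CPM against 0 in G1 while PRS5, a nucleotide precursor enzyme, fell by 1.95.

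Nascent RNA of the same states gave 889 genes higher (53.9%) and 87 lower of 1649, where 58.8% of all genes rose and 7.76% fell. The median was 1.47 for convergent and 2.34 for tandem genes. The split was 409 higher and 534 lower with antisense scaling, and 26 and 1185 with K. lactis scaling. MTL1 had 123 and 67.6 CPM in quiescence against 0.0784 and 0.234 in G1 (9.11 ± 0.518, adjusted p = 4.92e-10 by edgeR), and THG1 sense did not pass (0.26, adjusted p = 0.235). PSY2 had 87.3 and 52.3 against 0.235 and 0.0778 CPM (8.66 ± 0.571), with SPS19 sense at 7.17. CLN3 had 33.1 and 13.4 CPM against 0.0784 and 0, a ratio of counts of 575 (103 to 22700), next to CDC24 at −0.54. These 3 genes were thus named in both kinds of RNA, where naming by the size of a change required libraries without overlap.

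MIC26 fell in nascent RNA too, from 107 and 124 to 0.531 and 0.269 CPM (−8.15 ± 0.418), beside YHB1 at −7.09. HBN1 on chromosome III went from 65.4 and 69.8 to 0.637 and 0.537 CPM (−6.82 ± 0.512), 63 bp from FUS1, the cell fusion gene induced by mating pheromone, whose sense went from 1768 and 1901 to 14.8 and 12.1 CPM. RSA1 went from 17.6 and 17.0 to 0.318 and 0.0896 CPM (−6.35 ± 0.577), beside PRM3 at −7.00. FUS1 and PRM3 belong to the pheromone response, which the alpha factor arrest of the G1 samples switches on. SWI5, a transcription factor of late mitosis, had 5.41 and 3.67 CPM in quiescence and 0 in G1, at least 19.4-fold higher, and sense of TAF12 changed by 0.52.

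Nascent and steady-state RNA of one state differed less in G1 than in quiescence by the count of calls. In G1, 0 convergent genes were higher in nascent RNA and 13 lower, where 0.0213% of all genes rose and 1.56% fell. At an unadjusted p under 0.05 there were 142, DESeq2 gave 0 higher and 15 lower, the strain as a block gave 26 calls, and leaving out any single library left 3 to 5. With K. lactis scaling 920 genes were higher and 0 lower. LNP1 had 14.3 and 9.65 nascent against 62.3 and 58.3 steady-state CPM (−2.33 ± 0.349, edgeR adjusted p = 0.000462), and EGD2, of the nascent polypeptide-associated complex, changed by −2.11. NKP1, a kinetochore gene, had 14.6 and 12.0 against 69.1 and 52.7 CPM (−2.19 ± 0.338), beside the ribosomal stalk gene RPP2B at −2.15. NOP8, of ribosome assembly, stood at −2.17 ± 0.469 (edgeR adjusted p = 0.0169) and did not pass without G1 nascent replicate 2 (adjusted p = 0.481), G1 steady-state replicate 1 (0.0942) or replicate 2 (0.188). Each of these antisense changes came close to that of the neighbour's mRNA.

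In quiescence 209 genes were higher in nascent RNA and 135 lower, where 25.7% of all genes were higher and 6.95% lower. The convergent median was 0.417 and the tandem median 1.60. DESeq2 gave 102 and 104, antisense scaling 115 and 333, and K. lactis scaling 0 and 701. Single libraries moved this result by over 1.5 times: without quiescent steady-state replicate 1 there were 209 calls and without replicate 2 there were 107, while without nascent replicate 2 there were 404 higher and 107 lower. Without nascent replicate 1 the majority turned, with 102 higher and 166 lower. GDH1, a glutamate dehydrogenase, had 7.96 and 4.03 nascent against 0.597 and 0 steady-state CPM (ratio of counts 16.3, interval 4.41 to 136), while ALD4 sense changed by −1.57. SWC3, of the SWR1 complex, had 7.64 and 2.87 against 0.299 and 0 CPM, with MDM10 sense at 2.94. ARO9, an aromatic aminotransferase, went the other way, at 18.7 and 26.7 nascent against 125 and 228 steady-state CPM (−2.96 ± 0.33), with SPS100 at −1.47.

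The nascent over steady-state ratio was higher in quiescence than in G1 over 19 convergent genes and lower over 8 by the interaction term, where 2.17% of all genes were higher and 1.09% lower, with a median of 0.237. With the strain as a block 85 genes passed (52 and 33), and 3 to 98 passed without 1 library. Antisense scaling gave 14 and 77 and K. lactis scaling 0 and 1211. BCK1, a kinase gene of the cell wall pathway, had 7.75 and 6.73 steady-state and 12.4 and 9.73 nascent CPM in G1, against 31.4 and 53.2 and 11.1 and 13.2 in quiescence (−2.40 ± 0.513).

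The diauxic shift changed antisense in both directions at each step. From 2 h before to 2 h after it, 418 convergent genes rose and 405 fell in wild type, where 24.0% of all genes rose and 17.8% fell. The median was 0.0168, and K. lactis scaling gave 141 and 963. UBP11, a ubiquitin protease gene on chromosome XI (633026 to 635179, minus strand), had 0.397 and 0.522 antisense CPM before and 442 and 578 after (10.07 ± 0.231, edgeR adjusted p = 1.73e-110). PCK1, the gluconeogenic enzyme gene 224 bp from its 3′ end, went from 7.28 and 5.57 to 12770 and 13740 CPM in sense (10.99). VPS71, of the SWR1 complex, went from 1.32 and 0.871 to 218 and 255 CPM (7.68 ± 0.282), 112 bp from the carnitine acetyltransferase gene CAT2, whose sense rose by 8.21. In both genes every library after the shift lay above every library before it, which naming by the size of a change required.

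DUS4, a tRNA-modifying enzyme gene, fell from 142 and 131 to 7.13 and 5.66 CPM (−4.41 ± 0.173), beside the ribosomal protein gene RPL31B at −4.17. SPO24 had 0.265 and 0 CPM before and 7.13 and 12.9 after, a ratio of counts of 66.8 (18.1 to 559), and its own sense rose by 5.32 while ERV2 changed by −0.27. RPS1B and ASC1, both of the ribosome, fell in antisense by 4.54 and 4.31 on the log2 scale. Their antisense stood at 0.140 to 0.644% and 0.456 to 1.20% of their own sense reads, within or near the strand floor of these libraries, and their own sense changed by −4.13 and −5.38.

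From 2 to 24 h after the shift 211 convergent genes rose and 151 fell, where 12.4% of all genes rose and 8.49% fell. Antisense scaling gave 172 and 195, K. lactis scaling 24 and 1215, and without 24 h replicate 2 there were 226 calls. MTL1 rose from 0 and 1.37 to 28.5 and 35.6 CPM (5.48 ± 0.315). HPA2 rose from 1.78 and 2.23 to 33.7 and 31.4 CPM (4.00 ± 0.295) beside the aquaporin gene AQY1 (4.37). SPS100 rose by 4.63 ± 0.303 with its own sense at 6.24 and its neighbour ARO9 at −1.28. GPI15 fell from 21.7 and 24.0 to 2.92 and 1.48 CPM (−3.38 ± 0.323) beside IDH1, of mitochondrial isocitrate dehydrogenase (−2.14). Other falls were BRE4, by 2.78, and IDH2, by 2.53, the latter at 0.334 to 0.550% of its own sense.

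From 24 to 48 h, 490 rose and 130 fell, where 23.0% of all genes rose and 7.47% fell, with a median of 0.481. Antisense scaling gave 273 and 232 and K. lactis scaling 71 and 717, and without 48 h replicate 1 there were 308 calls. UBP11 antisense fell from 180 and 168 to 4.57 and 10.7 CPM (−4.72 ± 0.207), while PCK1 sense fell from 5388 and 4248 to 214.5 and 188.7 CPM (−4.57). MIC26 fell from 110 and 90.2 to 2.29 and 3.56 CPM (−5.21 ± 0.252) as YHB1 changed by −5.33. PRP6, a splicing factor gene, fell by 4.88 ± 0.338 beside YRO2 (−4.18). MAM3 rose from 2.59 and 2.67 to 79.3 and 96.1 CPM (5.02 ± 0.265) although PRS5 fell by 1.10, and IRC2 rose from 16.9 and 14.5 to 492 and 482 CPM (4.96 ± 0.158).

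**Figure D3:**
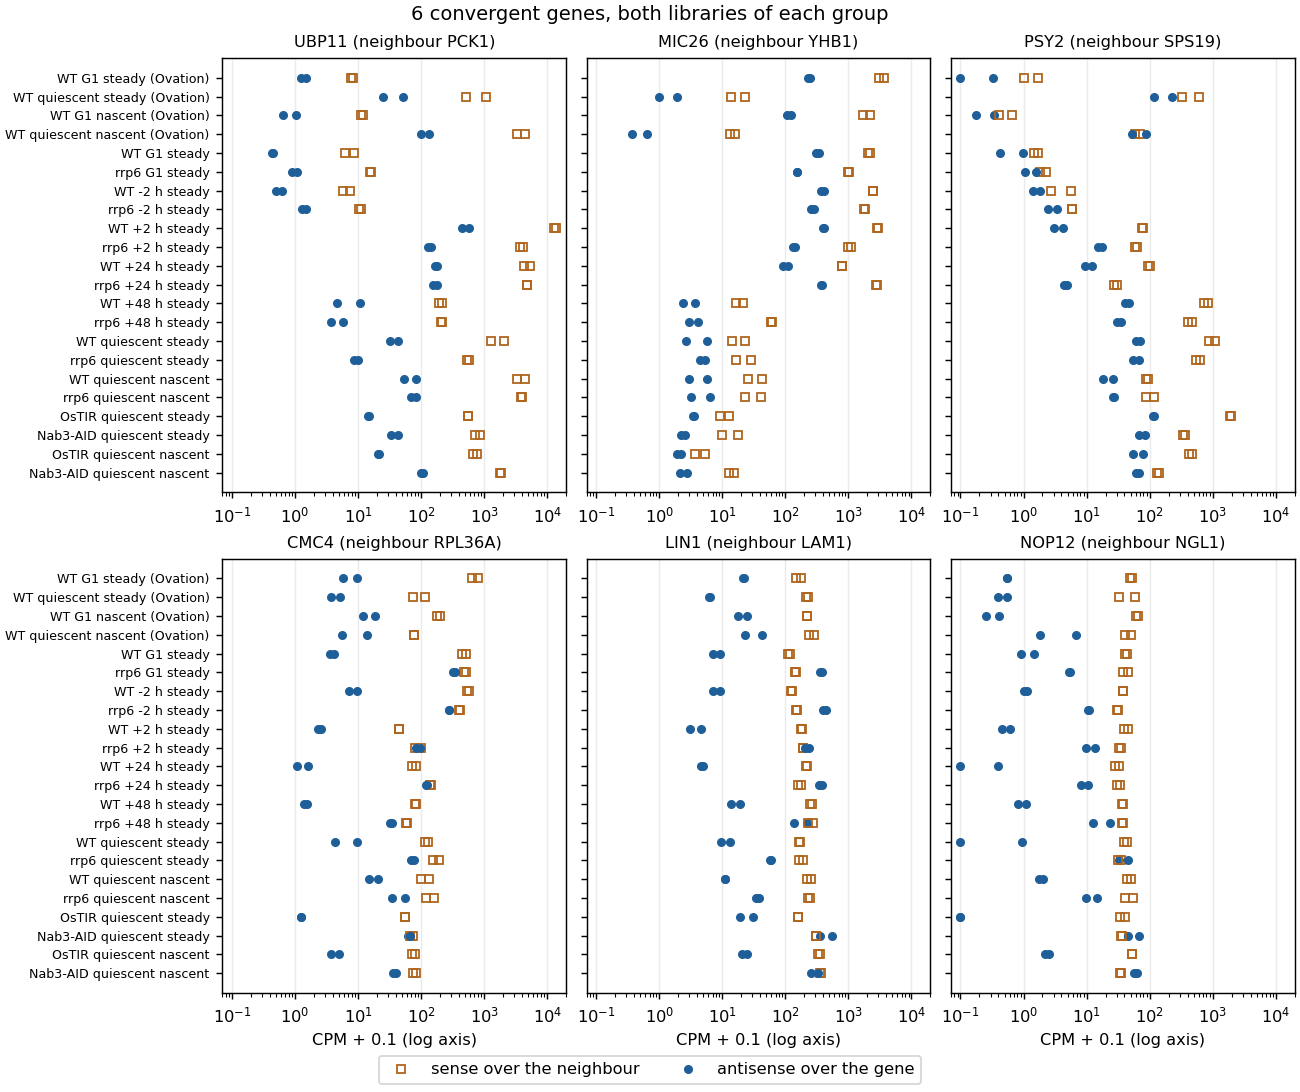
Antisense over the named convergent gene (CPM plus 0.1, log axis) and sense of its neighbour, for UBP11 with PCK1, MIC26 with YHB1, PSY2 with SPS19, CMC4 with RPL36A, LIN1 with LAM1 and NOP12 with NGL1; both libraries of each of the 22 groups are shown as points. UBP11 antisense lay at 442 and 578 CPM at 2 h after the shift, where PCK1 sense lay at 12770 and 13740. CMC4 antisense lay at 324 and 345 CPM in rrp6Δ G1 cells and 4.04 and 3.46 in wild type, while RPL36A sense changed by 0.04 (log2).

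Cells without Rrp6 had more antisense over many convergent genes in G1 and along the shift, but over a smaller share of them than of all genes. In G1, 782 of 2060 tested genes rose (38.0%) and 61 fell, where 50.7% of all genes rose and 3.32% fell, and 69.3% of tandem genes rose. The median was 0.65 for convergent and 1.85 for tandem genes. Antisense scaling gave 258 higher and 542 lower. CMC4, on chromosome XIII from 652594 to 652887, had 324 and 345 antisense CPM in rrp6Δ against 4.04 and 3.46 in wild type (6.46 ± 0.172, edgeR adjusted p = 4.18e-98). Sense of the ribosomal protein gene RPL36A, 683 bp away, did not pass (0.04, edgeR adjusted p = 0.689). LIN1 on chromosome VIII had 358 and 386 against 6.95 and 9.18 CPM (5.53 ± 0.167), with the sterol transfer gene LAM1 at 0.35. POL4, a DNA polymerase gene, had 15.8 and 12.1 against 0.162 and 0 CPM, a ratio of counts of 166 (29.5 to 6590), with the glycolytic gene PGK1 at −0.90. GRX5, a mitochondrial glutaredoxin gene, had 5.48 and 6.54 against 0, at least 12.0-fold higher.

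Of the 3 named falls in rrp6Δ G1 cells, 2 lay beside biosynthesis genes with lower sense. MTG1 had 11.7 and 17.9 against 45.6 and 34.5 CPM (−1.43 ± 0.161), and its neighbour SNZ1, of vitamin B6 synthesis, stood at −1.25. RAD16, a DNA repair gene, had 6.82 and 8.50 against 20.7 and 20.1 CPM (−1.41 ± 0.188), and LYS2, of lysine synthesis, stood at −1.39. TDH2, a glycolytic enzyme gene, stood at −1.29 ± 0.277 with antisense at 0.296 to 0.417% of its own sense, near the strand floor, and its own sense at −1.60.

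Along the shift the rrp6Δ contrasts gave 840 higher and 99 lower at 2 h before, where 56% of all genes rose and 5.10% fell. They gave 917 and 122 at 2 h after, where 56.6% and 5.81% of all genes did, and 847 and 145 at 24 h, where 51.5% and 8.81% did. At 48 h there were 410 and 121, where 32.0% and 6.80% did, and 286 calls without wild-type 48 h replicate 1. Convergent medians were 0.64, 0.804, 0.784 and 0.331, against tandem medians of 1.99, 1.97, 2.02 and 1.40. Antisense scaling gave 307 and 671, 359 and 563, 324 and 513, and 210 and 368 in the same order. K. lactis scaling gave 556 and 243, 433 and 412, 1879 and 14, and 1073 and 9.

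NAS2, a proteasome assembly chaperone gene on chromosome IX, had 95.9 and 74.7 antisense CPM in rrp6Δ against 0.661 and 0.522 in wild type at 2 h before the shift (7.09 ± 0.264). It had 12.4 and 13.2 against 0.178 and 0.343 at 2 h after, a ratio of counts of 49.1 (16.3 to 242), and 58.1 and 50.2 against 0 and 0.297 at 24 h, a ratio of 349 (62.4 to 13800). LIN1 stood at 5.70 ± 0.166, 5.91 ± 0.192 and 6.27 ± 0.2 at these times. CMC4 had 124 and 121 against 0.973 and 1.48 CPM at 24 h (6.6 ± 0.249) and 34.7 and 31.7 against 1.31 and 1.42 at 48 h (4.60 ± 0.358). At 48 h ECM9 stood at 4.57 ± 0.388 and CGR1, of ribosomal RNA processing, at 4.50 ± 0.339, with 54.0 and 38.1 against 2.29 and 1.42 CPM.

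MTL1 differed in direction between times: at 2 h after the shift it had 33.2 and 31.1 CPM in rrp6Δ against 0 and 1.37 in wild type (5.47 ± 0.307), and at 24 h 1.68 and 1.69 against 28.5 and 35.6 (−4.24 ± 0.256). The difference between these times was not tested. YSC83 fell at 2 h after, with 19.4 and 17.6 against 121 and 128 CPM (−2.75 ± 0.153), beside the arginine synthesis gene ARG4, whose sense stood at 296.3 and 258.6 against 1700 and 1875 CPM (−2.69). GPI15 fell by 2.27 ± 0.254 beside IDH1 (−1.94). At 24 h HPA2 stood at −3.83 ± 0.277 beside AQY1 (−5.51), and PUS5, a mitochondrial pseudouridine synthase gene, at −3.80 ± 0.183 beside SHH4 (−4.92). At 48 h MAM3 stood at −1.79 ± 0.186, PSP2 at −1.64 ± 0.144 and MEX67, the mRNA export receptor, at −1.54 ± 0.176. Before the shift MNL2 stood at −1.39 ± 0.121 beside SHM2 (−1.13), and RPS1B at −1.28 ± 0.267 with antisense at 0.312 to 0.644% of its own sense. SSA2, an Hsp70, stood at −1.13 ± 0.278 there and did not pass without wild-type replicate 2 (edgeR adjusted p = 0.143).

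In quiescence rrp6Δ raised antisense over 374 of 2156 tested convergent genes (17.3%) and lowered it over 54 in steady-state RNA, where 27.3% of all genes rose and 3.24% fell. The median was 0.521 against a tandem median of 1.5. Antisense scaling gave 149 and 230, and K. lactis scaling 1187 and 2. Fewer calls passed without rrp6Δ replicate 2 (278) or without wild-type replicate 1 (252) or 2 (277). PDS1, the securin gene, had 158 and 148 CPM in rrp6Δ against 5.68 and 2.55 in wild type (5.24 ± 0.359). NOP12, of ribosomal RNA processing on chromosome XV, had 33.1 and 44.6 against 0 and 0.849 CPM, a ratio of counts of 84 (14.9 to 3330), while NGL1 changed by −0.32. GPM2 had 33.1 and 32.2 against 0 and 1.70 CPM, a ratio of 36.6 (10 to 304). MAM3 fell, with 4.89 and 12.0 against 87.0 and 73.9 CPM (−3.33 ± 0.337). MTL1 fell from 1025 and 925 to 323 and 396 CPM (−1.44 ± 0.228), and SED1, a cell wall protein gene, fell from 751 and 687 to 120 and 159 (−2.37 ± 0.224).

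Nascent RNA of quiescent rrp6Δ cells gave 138 genes higher (6.40%) and 43 lower, where 12.5% of all genes rose and 1.86% fell. The median was 0.191. Antisense scaling gave 60 and 79 and K. lactis scaling 27 and 14. Without rrp6Δ replicate 2 there were 95 calls and without wild-type replicate 1 there were 98. BUD22 had 26.4 and 36.7 CPM in rrp6Δ against 4.12 and 3.51 in wild type (3.04 ± 0.269). NOP12 had 9.78 and 14.4 against 1.93 and 1.67 (2.73 ± 0.326), and PDS1 24.3 and 27.9 against 5.26 and 3.78 (2.52 ± 0.257). CCC1, a vacuolar iron transporter gene, fell from 46.0 and 30.2 to 4.70 and 10.5 CPM (−2.34 ± 0.311). COG7 stood at −2.13 ± 0.32 and DOA4 at −2.11 ± 0.384. NOP12 and PDS1 were thus named in both kinds of quiescent RNA.

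The change of the rrp6Δ effect along the shift was tested by an interaction term, 48 h after minus 2 h before. It was higher at 48 h over 92 convergent genes and lower over 296, where 5.06% of all genes were higher and 18.7% lower, with a median of −0.332. Antisense scaling gave 178 and 173, K. lactis scaling 564 and 66, and without wild-type 48 h replicate 1 there were 198 calls. FUN19 had 28.8 and 38.1 CPM in rrp6Δ against 0.661 and 0.871 in wild type before the shift, and 13.7 and 17.6 against 7.83 and 5.70 at 48 h (−4.31 ± 0.52).

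Of the 2346 convergent genes, 100 (4.26%) rose in all 6 steady-state rrp6Δ contrasts, against 777 of all 6600 genes (11.8%). A further 132 (5.63%) rose in 5, against 9.3% of all genes. Another 210 (8.95%) rose in 4, 288 (12.3%) in 3, 357 (15.2%) in 2 and 492 (21%) in 1. Of all genes 11, 12.4, 12.8 and 15.6% did, in the same order. None of the 6 contrasts called a rise in 767 (32.7%), against 27.2% of all genes. The 6 contrasts use separate libraries, but share the labelled strains of each genotype and, within a fit, the estimate of the spread. They are thus not independent. In the other direction 1 convergent gene fell in all 6, 10 in 4 and 1934 in none. In single contrasts 3.24 to 8.81% of all genes fell, and how often all genes fell in several was not counted. PMD1 had 73.5 and 69.7 CPM in rrp6Δ against 2.59 and 3.29 in wild type in G1 (4.60 ± 0.204), beside the ribosomal protein gene RPS26B at 876 bp. STE23, a protease that matures a-factor, had 69.4 and 74.4 against 1.62 and 2.60 CPM (5.09 ± 0.209), beside RPS29A at 755 bp. CGR1, 855 bp from the glucanase gene SCW11, had 3.41 and 3.79 against 0.162 and 0.866 CPM (2.79 ± 0.492).

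Nab3-AID cells had the most widespread rise. In steady-state RNA 1292 of 2010 convergent genes rose (64.3%) and 76 fell, near the 65.0% and 6.31% of all genes, with a median of 1.82 against a tandem median of 3.11. In nascent RNA 1548 rose (77.0%) and 99 fell, near the 75.5% and 7.59% of all genes, with a median of 1.72 against 2.70. Antisense scaling gave 398 higher and 415 lower, and 644 and 661. BIR1, a chromosomal passenger protein gene on chromosome X, had 134 and 129 CPM in Nab3-AID and 0 in the control in steady-state RNA, at least 38.9-fold higher (edgeR), and GRR1, an F-box protein gene, changed by 0.22. TRM11, of tRNA methylation, had 74.2 and 56.4 CPM against 0, at least 19.4-fold higher, with TRM13 at 1.98. NOP12 had 45.9 and 68.0 against 0, at least 16.9-fold higher.

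In nascent RNA MRH1 had 15.3 and 15.6 CPM against 0 in the control, at least 20-fold higher, and SPH1, of polarised growth, had 7.18 and 5.43 against 0, at least 8.19-fold higher. HED1, which restrains meiotic recombination, had 21.5 and 20.3 against 0 and 0.303 CPM, a ratio of counts of 169 (30.1 to 6700). The falls recurred in part: PSP2 had 15.8 and 17.8 against 278 and 289 CPM in steady-state (−4.08 ± 0.193) and 16.1 and 12.8 against 190 and 211 in nascent RNA (−3.78 ± 0.169). MTL1 stood at −3.64 ± 0.178 and −2.86 ± 0.162, with 33.7 and 49.0 against 537 and 481 CPM in steady-state RNA. MAD3, a spindle checkpoint gene, fell from 53.8 and 51.8 to 3.87 and 6.02 CPM in nascent RNA (−3.44 ± 0.238), and HUL4 from 216 and 86.0 to 27.4 and 34.9 in steady-state RNA (−2.29 ± 0.381).

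The distance to the neighbour ordered how closely antisense followed the neighbour's mRNA. Over the 16 contrasts, Spearman's rho between a gene's antisense change and its neighbour's sense change was 0.464 to 0.851 (median 0.634, 265 to 277 genes) at gaps of at most 100 bp. It was 0.184 to 0.588 (median 0.354, 578 to 703 genes) at gaps over 100 and up to 200 bp, 0.0441 to 0.383 (median 0.178, 566 to 834 genes) over 200 and up to 400 bp, and −0.0361 to 0.148 (median 0.06, 231 to 333 genes) above 400 bp. Over all genes and the 16 contrasts pooled, 52.6% of sense changes passed. Where a gene's antisense change and its neighbour's sense change both passed, the direction was shared in 960 of 1058, 1764 of 2483, 1640 of 2876 and 632 of 1296 in the same order of gaps. These values describe genes that share libraries, contrasts that in part share samples, and reads that may be counted for the neighbour and, where they cross the gap, as antisense of the gene. The correlation with the gene's own sense change ran from −0.307 to 0.512 over contrasts and gap classes.

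**Figure D4:**
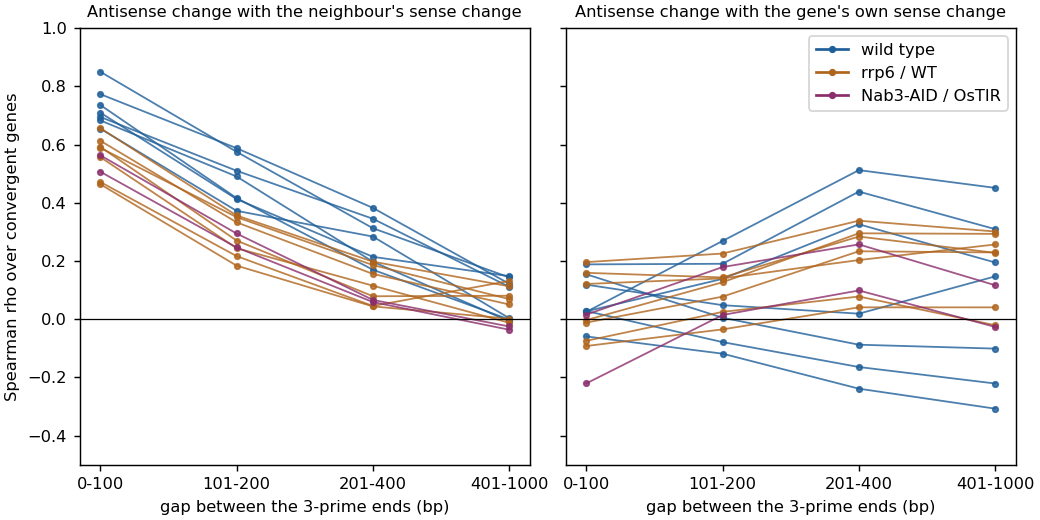
Spearman's rho across convergent genes (vertical axis) by gap class to the neighbour (horizontal axis, bp), 1 line per contrast, coloured by wild-type, rrp6Δ and Nab3-AID contrasts. The left panel sets the antisense change against the neighbour's sense change and the right panel against the gene's own sense change. In the left panel the lines run from 0.464 to 0.851 at gaps of at most 100 bp to −0.0361 to 0.148 above 400 bp.

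At gaps of at most 100 bp the highest rho of the 16 contrasts was that of the first shift step in wild type, 2 h after over 2 h before. From the narrowest to the widest gaps rho was 0.851, 0.575, 0.313 and 0.144. Both changes shared their direction in 116 of 117, 232 of 260, 175 of 250 and 56 of 98 genes where both passed. In quiescent over G1 steady-state RNA rho was 0.774, 0.588, 0.383 and 0.122, and the median antisense change went the other way, at 0.599, 0.994, 1.55 and 2.00. Nascent RNA gave medians of 0.502, 0.992, 2.03 and 2.53. In rrp6Δ G1 cells the medians were 0.256, 0.525, 0.837 and 0.912, with rho of 0.557, 0.244, 0.115 and −0.012. Nab3-AID nascent RNA had medians of 1.39, 1.88, 1.81 and 1.64, with rho of 0.564, 0.295, 0.066 and −0.025.

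**Figure D5:**
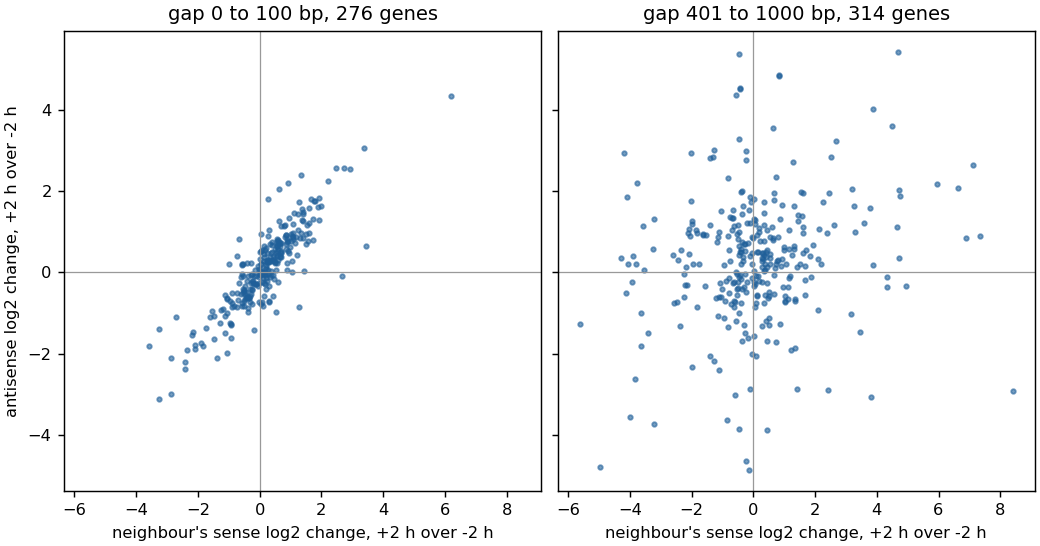
Log2 change from 2 h before to 2 h after the shift in wild type, with the neighbour's sense on the horizontal and the gene's antisense on the vertical axis; each point is a convergent gene. The 276 genes with gaps of 0 to 100 bp follow the neighbour (rho 0.851), and the 314 genes with gaps over 400 bp scatter (rho 0.144).

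The 4 pairs with the smallest gaps show the same at single genes. KRE29, of the Smc5/6 complex, changed in antisense by 2.56 at the first shift step, by −1.88 from 24 to 48 h and by 2.12 and −1.15 in rrp6Δ at 2 h before and after the shift. Sense of PHM8, a nucleotide phosphatase gene 3 bp away, changed by 2.48, −1.70, 2.16 and −1.28. In Nab3-AID steady-state RNA KRE29 antisense rose by 2.95 and PHM8 sense by 1.39. SHG1, of the Set1 complex, rose by 1.54 in quiescence over G1 beside POP4 (1.48). IRC25, a proteasome chaperone gene, stood at −3.43 beside SDO1 (−3.54) in that contrast and at −2.37 beside −2.42 at the first shift step. PEX34, of peroxisomes, stood at −1.73 from 24 to 48 h beside PRD1 (−1.10).

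Among the convergent genes whose antisense rose in quiescence over G1, sense of the neighbour rose in 362, fell in 147 and did not pass in 118 in steady-state RNA, where sense of 36.6% of all genes rose and of 37.8% fell. In nascent RNA these counts were 282, 257 and 341, where 29.2% and 33% of all genes rose and fell. At the first shift step they were 282, 85 and 49, against 40.8% and 36.7% of all genes. In rrp6Δ G1 cells they were 195, 162 and 419, against 25.5% and 23%, and in Nab3-AID nascent RNA 517, 472 and 554, against 36.4% and 33.7%. Pairs could also rise on both sides. Both genes of a pair rose in antisense in 98 of 616 tested pairs and 1 gene in 246 in quiescence over G1 steady-state RNA. In rrp6Δ G1 cells both rose in 156 of 917 pairs and 1 in 384, and in Nab3-AID steady-state RNA both rose in 351 of 875 and 1 in 375. In these 3 contrasts antisense rose over 38.4, 38.0 and 64.3% of tested convergent genes and 36.4, 50.7 and 65.0% of all genes. Whether the genes of a pair rose together more often than these shares alone would give was not tested.

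The reach of the neighbour's transcript model, assembled from nascent reads per the file headers, was set beside the quiescent over G1 change in wild type. Where the neighbour reached further in quiescence, 163 of 343 tested genes rose and 22 fell, with a median of 1.27 in steady-state RNA. Where it reached further in G1, 38 of 190 rose and 40 fell, with a median of −0.25. Where it entered the gene in neither state, 345 of 913 rose and 62 fell, with a median of 1.5. Of all genes 36.4% rose and 12.0% fell. In nascent RNA 185 rose and 10 fell (median 1.24) with a further reach in quiescence, and 24 and 24 (median −0.159) with one in G1. With entry in neither state 558 rose and 37 fell (median 1.89), where 58.8% of all genes rose and 7.76% fell. As the models rest on nascent reads of G1 and quiescence, this grouping is not independent of the changes. UBP11 was entered by 321 bp in quiescence and by 0 in G1, and RSA1 by 174 bp in G1 and 0 in quiescence.

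Genes with and without an annotated antisense non-coding RNA were set side by side, with no test of the difference. In rrp6Δ G1 cells 436 of 817 genes with one rose (53.4%, median 0.964), against 346 of 1243 without (27.8%, median 0.448). There 50.7% of all genes rose. At 2 h after the shift the shares were 56.2% and 36.8%, where 56.6% of all genes rose. In rrp6Δ quiescence the shares were 19.5% and 16% in steady-state RNA, where the median was lower with one (0.442) than without (0.556). In nascent RNA they were 7.76% and 5.56%. Of all genes 27.3% rose in steady-state and 12.5% in nascent RNA. In Nab3-AID nascent RNA the shares with and without one were 78.0% and 76.4%, near the 75.5% of all genes. In quiescence over G1 steady-state RNA they were 40.1% and 37.0%, where 36.4% of all genes rose. By class, 166 of 227 genes with an antisense NUT rose in rrp6Δ G1 cells (median 1.53), and 73 of 108 with a CUT (median 1.29). So did 173 of 246 with a CUTHMM and 72 of 186 with a CUT4x transcript (median 0.692). Of all genes 50.7% rose there. CUTs were defined by their accumulation without Rrp6, so their rise in rrp6Δ is no separate evidence. In Nab3-AID steady-state RNA 81 of 103 genes with a CUT rose (median 2.51), 172 of 218 with a NUT (median 2.42) and 69 of 118 with a SUT (median 1.26). Of all genes 65.0% rose in that contrast. The difference of these shares between mutants was not tested.

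Sense mRNA of the factors that end and clear such transcripts was examined in 4 lists, drawn up with earlier results known: cleavage and polyadenylation (20 genes), termination with the Rat1 exonuclease and Nrd1, Nab3 and Sen1 (8), chromatin factors that restrain antisense (14) and RNA decay (13). In quiescence over G1 steady-state RNA, 6 of the cleavage genes rose and 9 fell, and 3 of the termination genes rose and 1 fell. In chromatin 7 rose and 4 fell, and in decay 3 rose and 5 fell, where sense of 36.6% of all genes rose and of 37.8% fell. NAB3 rose by 1.20, and CFT1, the scaffold of the cleavage factor, fell by 1.43. At the first shift step 2 decay genes rose and 10 fell, with a median of −1.11, where 40.8% of all genes rose and 36.7% fell. In rrp6Δ G1 cells 6 cleavage genes rose and 0 fell, and 4 termination genes rose and 2 fell, where 25.5% of all genes rose and 23% fell. NRD1, whose own transcript is ended early by its product, rose by 2.20 there, by 3.14 at 2 h before the shift and by 3.42 and 2.34 in Nab3-AID steady-state and nascent RNA. In Nab3-AID steady-state RNA HRP1 rose by 2.15 and PCF11 by 1.46, while NAB3 changed by −0.52. In rrp6Δ quiescent nascent RNA RRP6, the deleted gene itself, was the 1 gene of the lists to pass, where sense of 0.812% of all genes rose and of 0.406% fell.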

How the data were processed

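Read counts per gene on the sense and on the opposite strand were deposited by the authors as whole numbers for 44 samples. Per the submitters' processing notes the tools were FastQC, UMI-tools, STAR, SAMtools, HTSeq, deepTools and MultiQC, with genome build sacCer3, and no role or order is given there. Rows that name no gene were left out: of all reads, 7.99 to 62.5% aligned non-uniquely, and 6.31 to 28% lay in no gene and 0.119 to 1.99% were ambiguous in the sense table. Of 46 run columns, those of 2 samples with a second run (wild type 48 h replicate 1, rrp6Δ quiescent steady-state replicate 2) were summed. The strand column of the opposite-strand table was reversed (0 of 6572 locus tags matched the reference, against 6572 of 6572 in the sense table), so strands came from the sense table. The members and lists were chosen with earlier results of these data known.

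Opposite-strand counts were tested with edgeR 4.0.16 in R 4.3.3 (glmQLFit, glmQLFTest, filterByExpr), with TMM factors from sense mRNA. DESeq2 1.42.0, 2 other scalings, no filter, the replicate number as a block and single libraries left out were alternatives; scripts were tested on simulated data. Permutation tests used scipy 1.17.1 in Python 3.11.15. Within wild type a replicate number marks 1 strain, per the labels, which gives the pairing, and deviations of same-strain libraries correlated at −0.0262 to 0.257. Named genes are the 3 largest rises and falls per contrast among called genes with non-overlapping libraries and a mean of at least 50 antisense reads in the higher group. The rule also names the 6 most often called in rrp6Δ, the 5 highest per length, and 3 with and 3 against a called neighbour in the quiescence contrasts. It further names the 4 closest pairs, loci with a described antisense or intergenic transcript and the factor lists. One gene pair that this rule names is not reported here.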

Additional observations from a re-analysis of the deposited data

Results flagged for a closer look

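The difference between contrasts was tested by an interaction term (edgeR, adjusted over all genes). For the nascent over steady-state ratio in quiescence minus that in G1, 27 convergent genes passed, 19 higher and 8 lower, where 2.17% of all genes were higher and 1.09% lower. With the strain as a block 85 passed (52 and 33). Leaving out 1 library gave 3 (G1 steady-state replicate 1 or 2), 12 (G1 nascent 2), 17 (quiescent steady-state 2), 39 with the majority turned to 15 higher and 24 lower (quiescent nascent 1) and 98 (quiescent nascent 2). NOT5, of the Ccr4-Not complex, differed by 4.05 ± 0.98 (adjusted p = 0.0293), with 13.9 and 20.6 CPM in G1 steady-state, 0.299 and 0.893 in quiescent steady-state, 7.84 and 8.33 in G1 nascent and 6.90 and 1.88 in quiescent nascent RNA. HO, the mating-type endonuclease gene, differed by 3.25 and NKP1 by 3.19. CBS1 differed by −2.76, BCK1, a kinase of the cell wall pathway, by −2.40, and IRC2 by −2.13. NOT5, HO, CBS1, BCK1 and IRC2 each lost the call without some single library.

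For the rrp6Δ effect at 48 h minus that at 2 h before the shift, 388 convergent genes passed, 92 higher and 296 lower, where 5.06% of all genes were higher and 18.7% lower. Without wild-type 48 h replicate 1 there were 198. MTQ1 differed by 4.28 ± 0.355: wild type and rrp6Δ had 21.7 and 19.5 against 17.2 and 17.3 CPM before the shift, and 3.59 and 1.42 against 49.6 and 45.3 at 48 h. LAM6, a sterol transfer gene, differed by 3.17 and DPH6, of diphthamide synthesis, by 2.93. NAS2 differed by −4.58 ± 1.17, and not past the threshold without wild-type 48 h replicate 2 (edgeR adjusted p = 0.292). BSC2 differed by −4.41 and FUN19 by −4.31.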

How the results depend on the processing

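Counts of called convergent genes moved by over 1.5 times as follows. DESeq2 gave 206 for quiescent nascent over steady-state RNA and 110 for rrp6Δ quiescent nascent RNA. K. lactis scaling gave 920 for G1 and 701 for quiescent nascent over steady-state RNA, 1211 for the interaction of state and RNA kind, 1189 and 41 for rrp6Δ quiescent steady-state and nascent RNA, 1893 and 1082 for rrp6Δ at 24 and 48 h, 1239 for wild type 24 over 2 h and 630 for the rrp6Δ by time interaction. Antisense scaling gave 91 for the first interaction and 813 for Nab3-AID steady-state RNA, and no low-count filter gave 57 for the first interaction. The replicate number as a block gave 26 for G1 nascent over steady-state RNA, 85 for the first interaction and 299 for rrp6Δ quiescent nascent RNA, and moved no other count so far. Between genotypes a number marks different strains, and deviations of same-numbered libraries correlated at −0.0404 to 0.349, highest in rrp6Δ against wild-type quiescent nascent RNA. The share of the median gene turned wild type 24 over 2 h to 0.019 percentage points from −0.497, and gave −0.986 for convergent minus tandem genes, where the sign-flip test passed but treats libraries of shared strains as independent.

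Without 1 library, counts ran over 520 to 675 and 743 to 1099 for quiescence over G1 in steady-state and nascent RNA, 3 to 5 and 107 to 511 for nascent over steady-state RNA in G1 and quiescence, 3 to 98 and 198 to 384 for the interactions, 252 to 362 and 95 to 214 for rrp6Δ in quiescent steady-state and nascent RNA, 286 to 450 for rrp6Δ at 48 h, and 226 to 308 and 308 to 560 for wild type 24 over 2 and 48 over 24 h. On the K. lactis scale 4 named genes reversed: NOP8 to 0.0258, NOT5 to −0.229, HO to −1.18 and NKP1 to −0.924. Using only columns labelled batch 1 was chosen after seeing the data. It also left out rrp6Δ 48 h replicate 1 and the Universal Plus G1 libraries, whose only columns are labelled batch 2. The counts for rrp6Δ quiescent steady-state RNA (414) and wild type 48 over 24 h (625) did not move by over 1.5 times. For rrp6Δ at 48 h, left with 1 library, the median log2 change was 0.288 against 0.331 with all libraries. For the rrp6Δ by time interaction it was −0.192 against −0.332.

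With 2 libraries a group, and 6 to 597 convergent genes without an antisense read in a library, antisense of few reads was not detectable at this depth. Antisense near 0.862% of a gene's own sense reads or below is not separable from imperfect strand marking in the Universal Plus libraries. The K. lactis scale differs from the mRNA scale by several log2 units, and the sources used here do not settle which reflects the cell, so directions hold relative to sense mRNA.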
